A study of Mus musculus with 18 samples.

Results

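The class 3 semaphorins are secreted guidance proteins, and 6 of them (Sema3a to Sema3f) are described here together with their receptors Nrp1, Nrp2, Plxna1 and Plxnd1, 10 of the 19938 genes measured. The genes were picked by symbol because the ratio of Sema3c between the invading and the non-invading fraction was known to be low, so this ratio is given as a description without a test. The cells were MLg 2908 fibroblasts, a single line from the lung of a newborn wild-type ddY mouse, plated in 5% serum on a three-dimensional collagen gel. The invading fraction was the cells recovered from within the gel, and the non-invading fraction was those left on its surface. The groups were invading at 72 h (n = 4), non-invading at 72 h (n = 4), invading at 96 h (n = 5) and non-invading at 96 h (n = 5). A figure legend of the study calls each sample column an independent experiment. The study also describes separating invading from non-invading cells after plating, so samples of the 2 fractions may share a culture. Which samples do is not given, so the samples cannot be taken as independent cultures. The treatment entry of every sample names TGFB1, whereas the study shows these cells as not treated, and this could not be settled. The comparisons address how the semaphorin system differs between the 2 fractions and between the 2 times. In bulk samples such as these, fewer cells of a type and less RNA per cell cannot be told apart. It is not given whether the arrays of both times were run together, so time and array run cannot be told apart either.

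Class 3 semaphorins bind neuropilins on the receiving cell, and the neuropilins pair with a plexin, which carries the signal across the membrane. The plexin then acts on small GTPases, actin and integrin adhesions, and the classical outcome is collapse of the leading edge and repulsion, although some members attract cells. Neuropilins also serve as co-receptors for VEGF, and Sema3e is an exception among the ligands in that it can bind Plxnd1 without a neuropilin. In the lung these genes are known for roles in branching and in patterning of vessels and nerves.

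All values are log2 RMA signals, and each of the 10 genes had 1 probe set with its symbol alone. A signal was called low when it stayed under 100 on the linear scale, which is 6.64 on the log2 scale. A gene was called different when limma gave an adjusted p under 0.10 over all probe sets, and groups were called apart when no sample of 1 group reached the range of the other. Sample medians ranged over 6.46 to 6.65, and Pearson's r between samples of 1 group over all probe sets lay between 0.991 and 0.996. Of the fibroblast markers, 9 of 10 had a mean above the low limit, Thy1 (mean 6.07) being the exception. None of 8 endothelial, 8 epithelial and 7 leukocyte markers did, and of 6 neuron and glia markers 1 did (Snap25, mean 6.87). Of 7 smooth muscle and pericyte markers 4 did. The mean endothelial marker signal of a sample was 5.73 to 5.87 in the invading and 5.61 to 5.76 in the non-invading fraction at 72 h, and 5.66 to 5.75 and 5.51 to 5.69 at 96 h. The mean fibroblast marker signal was 11.54 to 11.70 in the invading and 11.72 to 11.78 in the non-invading fraction at 72 h, without overlap, and 11.57 to 11.67 and 11.64 to 11.78 at 96 h. The mean smooth muscle and pericyte marker signal was 7.44 to 7.62 in the invading and 7.64 to 7.68 in the non-invading fraction at 72 h, also without overlap, and 7.43 to 7.57 and 7.29 to 7.54 at 96 h. The ranges of the epithelial, leukocyte and neuron and glia lists overlapped between the fractions at both times. The part of these differences and of other cells in the results below was not tested, with the defining endothelial markers Pecam1 (mean 5.53) and Cdh5 (mean 5.66) under the low limit.

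The bases before the start of 3 genes are shown because these are the genes with the widest range over the 18 samples among those whose RefSeq entry starts within 1000 bases of the outer end of the gene. Each sequence holds 250 bases before the start on the gene's own strand, from RefSeq on GRCm38.p6. The entries of Plxnd1 and Nrp1 start 334 and 482 bases inside the outer end of the gene. Capitals mark GGGCGG (a GC box) and GGCGTGG on either strand, 2 patterns that share the letters GGCG and did not overlap in these windows.
Sema3c, chr5:17574566-17574815, plus strand: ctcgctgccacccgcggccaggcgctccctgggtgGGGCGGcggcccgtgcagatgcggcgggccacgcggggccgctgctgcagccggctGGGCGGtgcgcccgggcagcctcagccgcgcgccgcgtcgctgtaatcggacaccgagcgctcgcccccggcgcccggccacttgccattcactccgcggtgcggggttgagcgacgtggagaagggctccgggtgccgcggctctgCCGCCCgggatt
Plxnd1, chr6:115995006-115995255, minus strand: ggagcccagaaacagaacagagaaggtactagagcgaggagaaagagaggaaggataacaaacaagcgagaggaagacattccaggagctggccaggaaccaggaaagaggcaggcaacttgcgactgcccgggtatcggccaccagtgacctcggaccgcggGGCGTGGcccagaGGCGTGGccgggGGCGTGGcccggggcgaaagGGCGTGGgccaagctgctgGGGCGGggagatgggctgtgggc
Nrp1, chr8:128358823-128359072, plus strand: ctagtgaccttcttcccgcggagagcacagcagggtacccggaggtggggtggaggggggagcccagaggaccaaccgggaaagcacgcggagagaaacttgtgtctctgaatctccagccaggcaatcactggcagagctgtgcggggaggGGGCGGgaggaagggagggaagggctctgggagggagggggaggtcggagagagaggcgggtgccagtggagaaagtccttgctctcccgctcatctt
The Sema3c window is 78.4% G and C, above 98.1% of the 32851 promoter entries (median 52.4%), and holds 3 GC boxes, a pattern found in 32.7% of entries. The Plxnd1 window is 64.8% G and C and holds 4 copies of GGCGTGG, found in 7.54% of entries, a pattern chosen after this sequence was seen, and 1 GC box. The Nrp1 window is 64.4% G and C with 1 GC box. Of the 7 genes of the group with an entry, Nrp2 had 5 GC boxes, Sema3e 2, and Sema3a and Sema3d none. The entry of Sema3a starts 271962 bases inside the outer end of the gene, so its window does not describe the letters at that end. Searches of both strands for CCAAT (33.8% of entries), TATAAA (12.4%), TGANTCA (6.75%), CACGTG (6.02%), GGAATG (12.6%) and CAGAC (42.2%) gave 1 match in the 3 windows shown, GGAATG in Plxnd1. These matches are descriptions of the letters and show no binding.

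**Figure D1:**
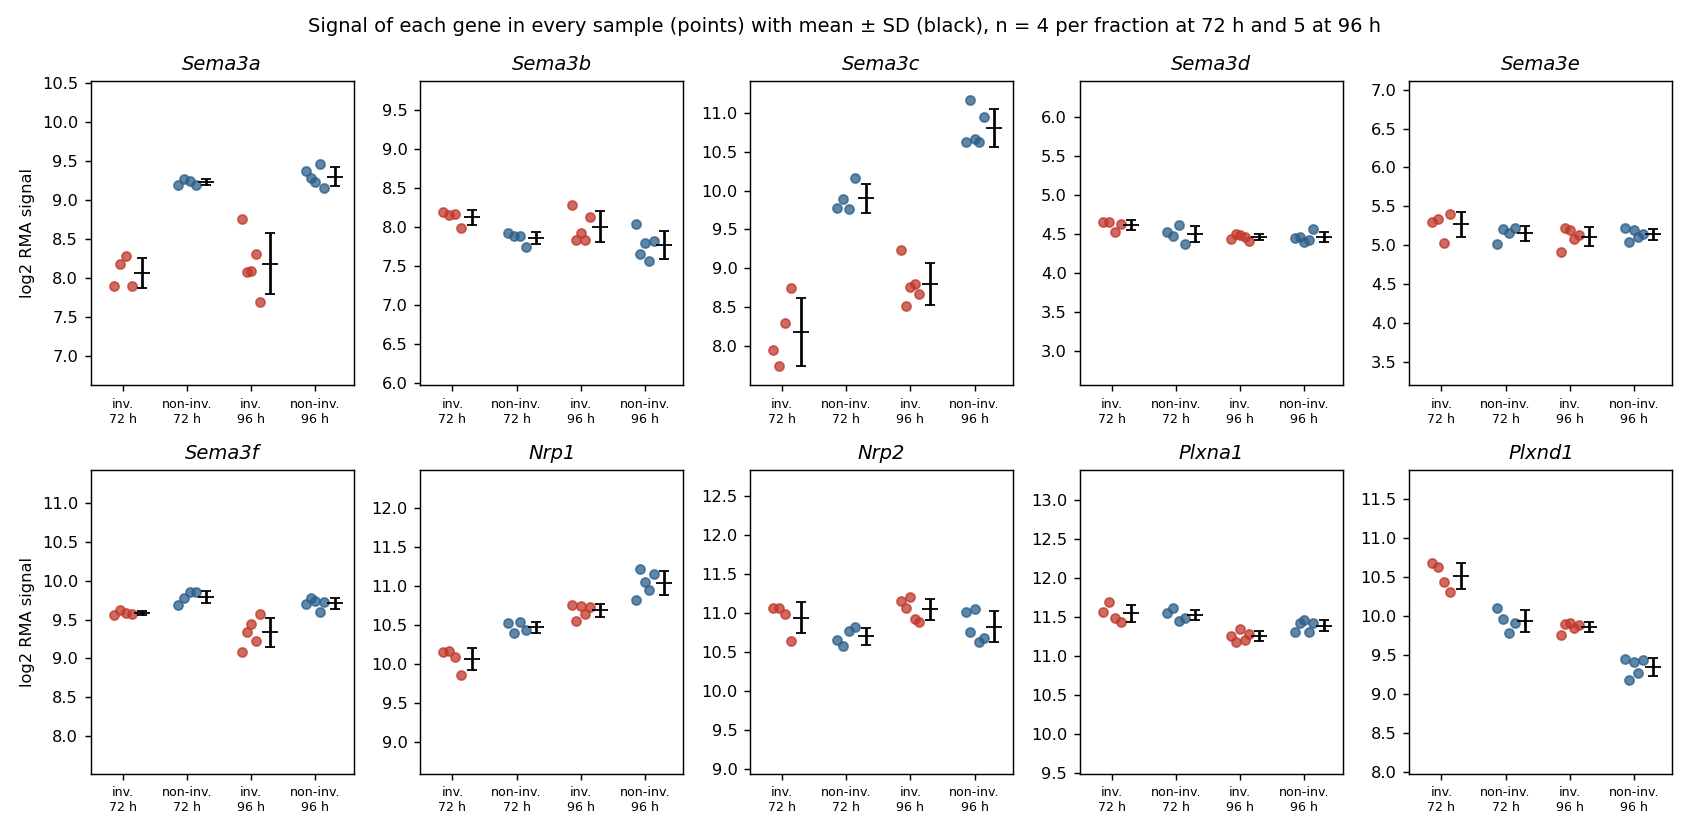
Log2 RMA signal (vertical axis, the same span in every panel) of each gene in each sample, in the invading fraction (red) and the non-invading fraction (blue) at 72 h (n = 4 each) and 96 h (n = 5 each), with mean ± SD in black. Sema3c and Sema3a lie lower in every invading sample than in every non-invading sample of the same time, Nrp1 lies higher at 96 h in both fractions, and Sema3d and Sema3e stay under 6.64 throughout.

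Sema3c, which guides neural crest cells to the outflow tract of the heart and binds both neuropilins, had the widest range of the group, 3.41 log2 units over the 18 samples. At 72 h its signal was 7.96, 7.75, 8.30 and 8.75 in the invading samples, against 9.78, 9.89, 9.77 and 10.16 in the non-invading samples. At 96 h it was 9.23, 8.52, 8.76, 8.81 and 8.67 in the invading samples, against 10.62, 11.16, 10.66, 10.63 and 10.95 in the non-invading samples. The fractions were apart at both times. The means were 8.19 ± 0.43 in the invading and 9.90 ± 0.18 in the non-invading fraction at 72 h (SD, n = 4), and 8.80 ± 0.27 and 10.80 ± 0.24 at 96 h (SD, n = 5). The invading over non-invading log2 ratio was -1.71 (standard error, SE, 0.20) at 72 h and -2.01 (SE 0.14) at 96 h, which is 0.305 and 0.249 of the non-invading level. The 4 groups stood in the order non-invading 96 h, non-invading 72 h, invading 96 h and invading 72 h, and only the last pair overlapped.

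Sema3a, the ligand that collapses growth cones through Nrp1 and plexin-A, was also lower in invading cells at both times. At 72 h it read 7.90, 8.17, 8.28 and 7.89 in the invading samples, against 9.19, 9.27, 9.24 and 9.19 in the non-invading samples. At 96 h it read 8.75, 8.07, 8.09, 8.31 and 7.68 in the invading samples, against 9.37, 9.28, 9.23, 9.46 and 9.14 in the non-invading samples. No invading sample of either time reached a non-invading sample. The log2 ratio was -1.16 (SE 0.10, adjusted p = 0.00036 from limma) at 72 h and -1.12 (SE 0.16, adjusted p = 0.00057) at 96 h, so the invading level was 0.446 and 0.462 of the non-invading level. Within the fractions the 2 times overlapped. The invading samples had the larger spread, an SD of 0.20 at 72 h and 0.39 at 96 h, against 0.04 and 0.12 in the non-invading samples.

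Sema3f, a ligand that prefers Nrp2, was lower in the invading fraction by a smaller amount. At 72 h it read 9.55, 9.62, 9.59 and 9.58 in the invading samples, against 9.68, 9.77, 9.85 and 9.85 in the non-invading samples (log2 ratio -0.20, SE 0.06, adjusted p = 0.05 from limma). At 96 h it read 9.09, 9.34, 9.44, 9.23 and 9.57 in the invading samples, against 9.70, 9.78, 9.74, 9.59 and 9.73 in the non-invading samples (log2 ratio -0.37, SE 0.09, adjusted p = 0.0078). The fractions were apart at both times. The call at 72 h was lost without replicate 1 of the invading fraction (adjusted p = 0.11) and without replicate 3 or 4 of the non-invading fraction (adjusted p = 0.13 and 0.12). It was also lost with arrays centred on their medians (log2 ratio -0.13, adjusted p = 0.17) and with quantile normalization applied again (log2 ratio -0.17, adjusted p = 0.10).

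Sema3b, which has been studied as a tumour suppressor, moved the other way at 72 h. It read 8.19, 8.15, 8.16 and 7.98 in the invading samples, against 7.93, 7.88, 7.88 and 7.74 in the non-invading samples, and the fractions were apart. The log2 ratio was 0.27 (SE 0.07, adjusted p = 0.033 from limma). At 96 h it read 8.29, 7.84, 7.92, 7.83 and 8.13 in the invading samples, against 8.03, 7.65, 7.79, 7.56 and 7.82 in the non-invading samples. These fractions overlapped, and the log2 ratio of 0.23 (95% interval -0.01 to 0.48, adjusted p = 0.15) was not called. It was called with arrays centred on their medians (log2 ratio 0.35, adjusted p = 0.032) and in 4 other alternatives. Among these was the replicate block, in which limma treats same-numbered samples of both fractions as linked (adjusted p = 0.016). Every invading sample at 96 h read higher than the non-invading sample of its number. Whether the numbers pair the fractions is not settled.

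Sema3d and Sema3e, ligands known from the patterning of lung veins and from vessel repulsion through Plxnd1, had low signals in all 18 samples (4.36 to 4.65 and 4.91 to 5.41). Neither differed in a called way between the fractions. The log2 ratios of Sema3d were 0.12 at 72 h and 0.00 at 96 h (adjusted p = 0.28 and 1 from limma), and those of Sema3e were 0.12 and -0.03 (adjusted p = 0.42 and 0.78). With arrays centred on their medians Sema3d was called higher in invading cells at both times (log2 ratio 0.20 and 0.12, adjusted p = 0.093 and 0.077), and the ratio of Sema3e at 96 h was 0.09, without a call. Sema3g, the remaining class 3 semaphorin and not one of the 10 genes, exceeded the low limit in 3 of 18 samples. It was called higher in the invading fraction at 72 h (log2 ratio 0.16, adjusted p = 0.094), a call lost whichever of the 8 samples was left out, and had a ratio of 0.01 at 96 h (adjusted p = 0.96).

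**Figure D2:**
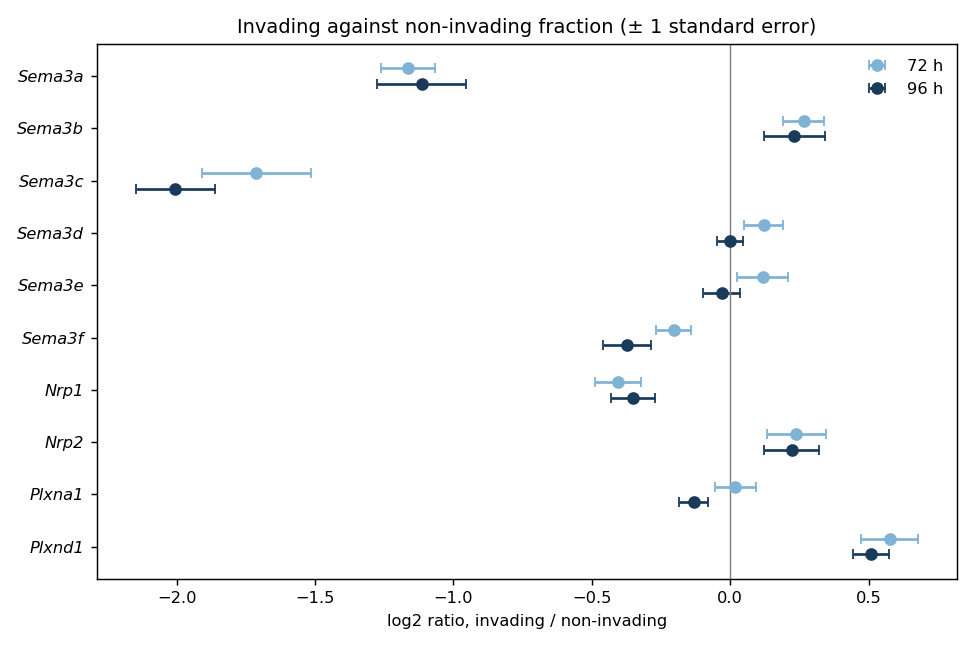
Invading over non-invading signal as a log2 ratio (horizontal axis, points, with bars of 1 SE from limma) for each gene at 72 h (light, n = 4 per fraction) and 96 h (dark, n = 5 per fraction). Sema3c (-1.71 and -2.01) and Sema3a (-1.16 and -1.12) lie farthest to the left, Plxnd1 (0.58 and 0.51) farthest to the right.

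Among the receptors, Nrp1, which binds Sema3a and acts with VEGF receptors, was lower in invading cells at 72 and 96 h. At 72 h it read 10.16, 10.17, 10.10 and 9.87 in the invading samples, against 10.53, 10.40, 10.55 and 10.44 in the non-invading samples (log2 ratio -0.40, SE 0.08, adjusted p = 0.0099 from limma). At 96 h it read 10.77, 10.56, 10.75, 10.65 and 10.74 in the invading samples, against 10.83, 11.23, 11.06, 10.95 and 11.16 in the non-invading samples (log2 ratio -0.35, SE 0.08, adjusted p = 0.007). Invading cells held 0.756 of the non-invading level at 72 h and 0.784 at 96 h. All 4 groups were apart from their neighbours in the order non-invading 96 h, invading 96 h, non-invading 72 h and invading 72 h.

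Nrp2, the neuropilin that prefers Sema3f and takes part in lymphatic growth, was not called at either time. It read 11.07, 11.07, 10.99 and 10.65 in the invading samples at 72 h, against 10.65, 10.58, 10.77 and 10.82 in the non-invading samples. It read 11.16, 11.06, 11.21, 10.93 and 10.89 in the invading samples at 96 h, against 11.01, 10.75, 11.06, 10.63 and 10.68 in the non-invading samples. The fractions overlapped at both times. The log2 ratio was 0.24 at 72 h (95% interval 0.00 to 0.48, adjusted p = 0.15 from limma) and 0.22 at 96 h (95% interval 0.00 to 0.44, adjusted p = 0.12). Without replicate 4 of the invading fraction, the lowest of its group, the ratio at 72 h was 0.34 and was called (adjusted p = 0.025). With arrays centred on their medians Nrp2 was called higher in invading cells at 72 h (log2 ratio 0.32, adjusted p = 0.05) and at 96 h (log2 ratio 0.34, adjusted p = 0.017). At 96 h it was called in 6 further alternatives, among them the replicate block (adjusted p = 0.02 from limma). Every invading sample at 96 h read higher than the non-invading sample of its number, although a pairing by number is not settled.

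Plxnd1, a plexin best known from blood vessels that receives Sema3e and, with neuropilins, Sema3c, was the receptor of the group called higher in invading cells at both times. The ratios of Nrp2 were also above 0 at both times, without a call. It read 10.68, 10.63, 10.44 and 10.30 in the invading samples at 72 h, against 10.10, 9.96, 9.77 and 9.90 in the non-invading samples. It read 9.75, 9.90, 9.91, 9.84 and 9.88 in the invading samples at 96 h, against 9.45, 9.17, 9.41, 9.27 and 9.43 in the non-invading samples. The fractions were apart at both times, with log2 ratios of 0.58 (SE 0.10, adjusted p = 0.0056 from limma) and 0.51 (SE 0.06, adjusted p = 0.00028). The invading level was 1.49 and 1.42 times the non-invading level.

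Plxna1, a plexin-A that signals for neuropilin-bound ligands, had a log2 ratio of 0.02 at 72 h (adjusted p = 0.89 from limma) and of -0.13 at 96 h (SE 0.05, adjusted p = 0.093). At 96 h it read 11.25, 11.19, 11.35, 11.21 and 11.29 in the invading samples, against 11.31, 11.43, 11.47, 11.32 and 11.43 in the non-invading samples, and the fractions overlapped. This call was lost with arrays centred on their medians (log2 ratio -0.01, adjusted p = 0.87) and when any 1 of 7 samples was left out, namely replicates 1, 2, 4 and 5 of the invading fraction and 2, 3 and 5 of the non-invading fraction (log2 ratios from -0.14 to -0.11).

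Leaving out Sema3c, 2 of 9 genes were called higher and 3 lower in invading cells at 72 h, where 13% of all genes were called higher and 13.5% lower. At 96 h, 1 of 9 was called higher and 4 lower, where 16.7% of all genes were called higher and 14.7% lower. The median log2 ratio of the 9 genes was 0.12 at 72 h and -0.03 at 96 h, against 0.04 and 0.02 over all genes. Every invading sample lay above every non-invading sample for Sema3b and Plxnd1 at 72 h and for Plxnd1 at 96 h, as for 12.5% and 9.35% of all genes. Every invading sample lay below for Sema3a, Sema3f and Nrp1 at both times, as for 12.3% of all genes at 72 h and 8.8% at 96 h. With arrays centred on their medians, which shifted the median ratio of all genes by 0.08 at 72 h and 0.12 at 96 h, the counts were 4 higher and 2 lower at 72 h and 4 higher and 3 lower at 96 h. Quantile normalization applied again gave 2 higher and 4 lower at 96 h. The shares of all genes were computed for the main fit only, so nothing particular to the 9 genes is read from these changed counts.

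From 72 to 96 h Sema3c and Nrp1 rose in both fractions. Sema3c was 1.53 times as high at 96 h as at 72 h in the invading fraction (log2 ratio 0.61, SE 0.18, adjusted p = 0.019 from limma), although the samples of both times overlapped. In the non-invading fraction it was 1.87 times as high (log2 ratio 0.90, SE 0.18, adjusted p = 0.0019), and the times were apart. These tests of Sema3c use the same values as the fraction ratio by which it was picked, so they are not free of that choice. Nrp1 reached 1.54 times its 72 h level in the invading fraction (log2 ratio 0.62, SE 0.08, adjusted p = 3e-05) and 1.48 times in the non-invading fraction (log2 ratio 0.57, SE 0.08, adjusted p = 0.00014), with the times apart in both.

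Plxnd1 fell in both fractions over the same interval. Its level at 96 h was 0.635 of that at 72 h in the invading fraction (log2 ratio -0.66, SE 0.08, adjusted p = 2.2e-05 from limma) and 0.665 in the non-invading fraction (log2 ratio -0.59, SE 0.08, adjusted p = 0.00013), with the times apart in both. Its invading samples at 96 h overlapped its non-invading samples at 72 h. Plxna1 fell in the invading fraction (log2 ratio -0.29, SE 0.06, adjusted p = 0.0016), where it read 11.25, 11.19, 11.35, 11.21 and 11.29 at 96 h, against 11.56, 11.70, 11.49 and 11.44 at 72 h, and the times were apart. In the non-invading fraction its log2 ratio of -0.14 was not called (adjusted p = 0.11), but it was called in 4 alternatives. These were quantile normalization applied again (log2 ratio -0.21, adjusted p = 0.011 from limma) and a filter for signals above 100 (adjusted p = 0.07). The others were a limma fit with an intensity trend and robust estimation (adjusted p = 0.077) and leaving out replicate 2 of the invading fraction at 72 h (adjusted p = 0.086).

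Sema3f fell in the invading fraction (log2 ratio -0.25, SE 0.08, adjusted p = 0.026 from limma), with overlap of the times, and had a ratio of -0.08 in the non-invading fraction (adjusted p = 0.52). Sema3d was called lower at 96 h in the invading fraction (log2 ratio -0.16, adjusted p = 0.045) at low signals of 4.41 to 4.50 at 96 h and 4.52 to 4.65 at 72 h. That call was lost without replicate 1 or 2 of the invading fraction at 72 h (adjusted p = 0.11 each) and with arrays centred on their medians (adjusted p = 0.13). Sema3a, Sema3b, Sema3e and Nrp2 were not called between the times in either fraction, with log2 ratios from -0.16 to 0.12. Without replicate 3 of the invading fraction at 72 h, Sema3e was called lower at 96 h in that fraction (log2 ratio -0.24, adjusted p = 0.024 from limma), at low signals.

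In the invading fraction 2 of 10 genes were higher and 4 lower at 96 h, where 18.2% of all genes were called higher and 16.7% lower. In the non-invading fraction 2 were higher and 1 lower, where 15.4% of all genes were called higher and 12.2% lower. Quantile normalization applied again gave 2 higher and 2 lower, as did a filter for signals above 100 and a limma fit with an intensity trend and robust estimation. The share of all genes was not computed for these settings. Sema3c was among the genes called higher in both fractions, with the limit on its tests given above. The median log2 ratio of the 10 genes was -0.14 in the invading and -0.02 in the non-invading fraction, against -0.03 and -0.02 over all genes. Samples of 96 h lay above all samples of 72 h for Nrp1 in the invading fraction and for Sema3c and Nrp1 in the non-invading fraction, as for 13.3% and 12.2% of all genes. They lay below for Sema3d, Plxna1 and Plxnd1 in the invading fraction and for Plxnd1 in the non-invading fraction, as for 10.3% and 7.8% of all genes.

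**Figure D3:**
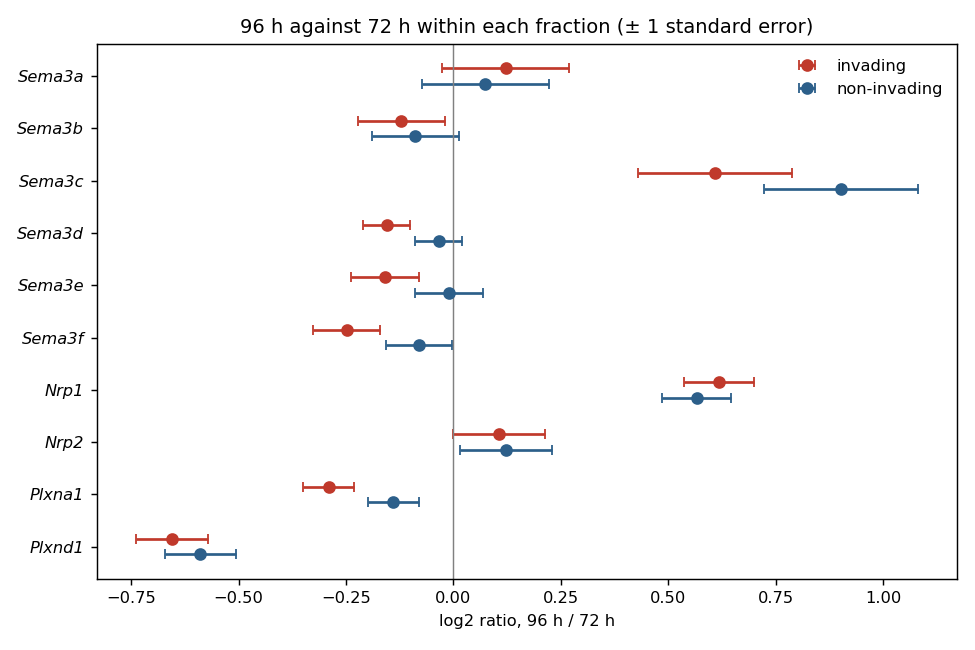
Log2 ratio of 96 h to 72 h (horizontal axis, points, with bars of 1 SE from limma) within the invading fraction (red, n = 5 and 4) and the non-invading fraction (blue, n = 5 and 4) for each gene. Sema3c and Nrp1 lie right of 0 (0.57 to 0.90) and Plxnd1 left of 0 (-0.66 and -0.59) in both fractions.

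The change of the fraction ratio between the times was itself tested over all 18 samples. None of the 9 genes was called, and the smallest adjusted p was 0.67, for Plxna1 (difference 96 h minus 72 h of -0.15, 95% interval -0.33 to 0.03, unadjusted p = 0.092 from limma). None of the 9 had an unadjusted p under 0.05. Over all genes 0.015% were called higher and 0% lower, and over all probe sets 18 were called and 3062 had an unadjusted p under 0.05. The difference was 0.05 for Sema3a (95% interval -0.39 to 0.49), 0.05 for Nrp1 (95% interval -0.19 to 0.29) and -0.07 for Plxnd1 (95% interval -0.32 to 0.18). For Sema3c it was -0.29 (SE 0.25), given without a test.

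The counts of the wider gene lists below are read against the same shares of all genes: 13% higher and 13.5% lower in invading cells at 72 h, 16.7% and 14.7% at 96 h, and for 96 against 72 h 18.2% and 16.7% in the invading and 15.4% and 12.2% in the non-invading fraction. No list was tested as a whole, and nothing particular to a list is read from its count. The wider plexin family held 7 further genes. At 72 h Plxnc1, a receptor of Sema7a, was called higher in the invading fraction (log2 ratio 0.25), at a mean signal of 5.15, under the low limit. Plxna3, a partner of Nrp2 in Sema3f signalling, was called lower (-0.24). At 96 h Plxna3 (-0.47, adjusted p = 0.0003 from limma) and Plxna2, a plexin-A that can serve Sema3c (-0.49, adjusted p = 0.0018), were lower, as was Plxnb1, a receptor of Sema4d (-0.19). With arrays centred on their medians the 72 h call of Plxna3 and the 96 h call of Plxnb1 were lost (log2 ratios -0.17 and -0.07). Between the times Plxna3 fell in the invading (-0.40) and the non-invading fraction (-0.17), and 3 of 7 plexins were lower in the invading fraction (16.7% of all genes) and 1 higher and 1 lower in the non-invading fraction (15.4% and 12.2%). The median log2 ratio of the 7 was 0.00 at 72 h and -0.12 at 96 h between the fractions, against 0.04 and 0.02 over all genes.

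Of 13 semaphorins of classes 4 to 7, most of which are anchored in the membrane, 3 were called higher and none lower in invading cells at each time, where 13% of all genes were higher at 72 h and 16.7% at 96 h. The median log2 ratio of the 13 was 0.15 and 0.06. The called genes were Sema4f (log2 ratio 0.32), Sema4c (0.31) and Sema6b (0.25) at 72 h, and Sema7a (0.72), Sema4c (0.26) and Sema4a (0.20) at 96 h. The fractions overlapped for Sema6b at 72 h and for Sema7a and Sema4c at 96 h. The 96 h ratio of Sema7a had a wide 95% interval of 0.21 to 1.23, and its ratio at 72 h was 0.05 (adjusted p = 0.93 from limma). The mean signals of Sema4f (5.63) and Sema4a (5.77) were under the low limit. Between 72 and 96 h 4 of the 13 fell in each fraction and none rose, where 16.7% of all genes fell in the invading and 12.2% in the non-invading fraction. Sema4b had log2 ratios of -0.34 in the invading and -0.38 in the non-invading fraction, Sema6c -0.30 and -0.22, and Sema7a was called lower in the non-invading fraction (-0.76, adjusted p = 0.078 from limma) and had a ratio of -0.10 in the invading fraction (adjusted p = 0.86).

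**Figure D4:**
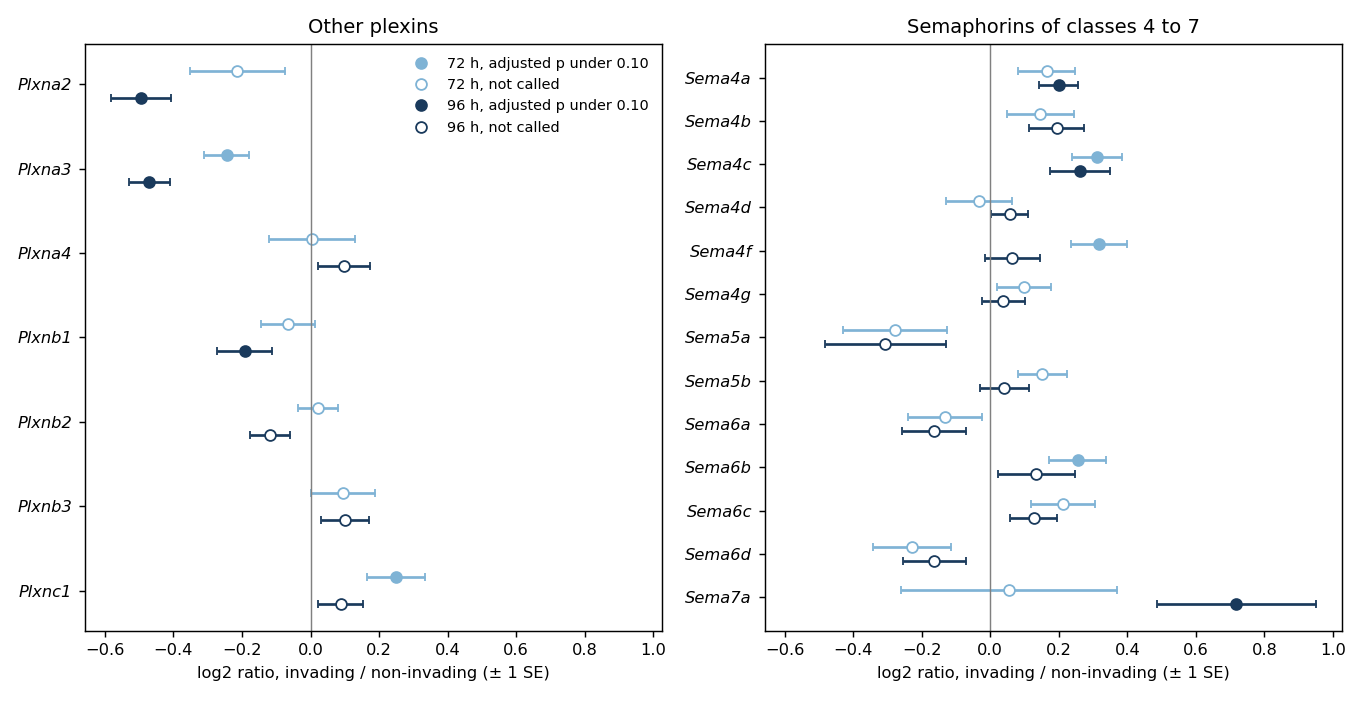
Invading over non-invading signal as a log2 ratio (horizontal axis, bars of 1 SE from limma) for 7 further plexins and 13 semaphorins of classes 4 to 7 at 72 h (light) and 96 h (dark), filled where the adjusted p was under 0.10. The filled plexin points at 96 h lie left of 0 (-0.49 to -0.19) and the filled semaphorin points right of 0 (0.20 to 0.72).

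Of 8 VEGF ligands and receptors, the other users of neuropilins, Vegfb was higher in the invading fraction at both times (log2 ratio 0.39 and 0.43) and Vegfd lower (-0.57 and -0.41). The 96 h call of Vegfd was lost with arrays centred on their medians (adjusted p = 0.12 from limma). Vegfa had ratios of 0.00 and 0.06 and was not called. A list of 8 genes held membrane proteins named as partners of the receptor complex and also Nrg1, which is a ligand and no such partner. Of these 8, 1 was higher and 4 lower at each time, where 13% and 13.5% of all genes were at 72 h and 16.7% and 14.7% at 96 h. The hepatocyte growth factor receptor Met (-0.80 and -0.54), Nrg1, a growth factor for ErbB receptors (-0.47 at both), the integrin chain Itgb1 (-0.45 and -0.30) and Robo1 (-0.33 and -0.31) were lower. The adhesion protein Nrcam was higher (0.26 and 0.17), at a mean signal of 5.10, under the low limit. Of 4 proprotein convertases, which cleave class 3 semaphorins, none was called at 72 h. At 96 h Furin was higher (0.23) and Pcsk7 lower (-0.29), and Furin fell with time in the invading (-0.31) and the non-invading fraction (-0.38).

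Of 26 effectors inside the cell, 4 were higher and 7 lower in invading cells at 72 h, and 5 higher and 7 lower at 96 h, where 13% and 13.5% of all genes were at 72 h and 16.7% and 14.7% at 96 h. The median log2 ratio of the 26 was -0.08 and -0.04. Sh3bp1, a Rac-inactivating partner of plexin-D1, was higher at both times (log2 ratio 0.57 and 0.65), as was the actin-oxidising enzyme Mical1 (0.43 and 0.26). The kinase Gsk3b (-0.41 and -0.28), the GTPase Rnd3 (-0.40 and -0.35) and Farp2, an exchange factor that acts with plexin-A (-0.31 and -0.53), were lower at both. Mical2, a relative of Mical1, fell with time in the invading (-0.55) and the non-invading fraction (-0.67). Of 23 slits, netrins, ephrins and their receptors, 4 were higher and 3 lower at 72 h, and 4 higher and 4 lower at 96 h, near these shares of all genes. The ephrin receptor Epha4 was lower (-0.83 and -0.81), and the netrin receptor Unc5b was higher (0.48 and 0.55).

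The genes most like Sema3c were found by the root mean square difference between gene-centred log2 signals over the 18 samples, by which a gene with a flat signal would lie 1.04 from Sema3c. The nearest were Cavin2, a coat protein of caveolae (0.361), the probe set of the Mir181b-2 locus (0.362), the growth factor Igf1 (0.388), the hyaluronan-degrading factor Cemip (0.389), and Phxr4 (0.391). Cavin2 averaged 9.14 in the invading and 10.26 in the non-invading fraction at 72 h, and 9.61 and 10.90 at 96 h. Igf1 averaged 8.19 and 9.51 at 72 h and 8.53 and 9.83 at 96 h. Mir181b-2 averaged 5.886 and 7.335 at 72 h and 6.52 and 8.277 at 96 h, and Phxr4 5.75 and 7.417 at 72 h and 6.055 and 8.015 at 96 h. For both, the means of the invading fraction were under the low limit. Among the other genes of the group Sema3a was closest, at rank 64 (0.582), followed by Nrp1 at rank 736 (0.809), and Plxnd1 was the farthest, at rank 19838 (1.43). Of the 7 class 3 semaphorin genes, 4 lie on chromosome 5 (Sema3a, Sema3c, Sema3d and Sema3e), and 2 of those 4, Sema3d and Sema3e, had low signals throughout.

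**Figure D5:**
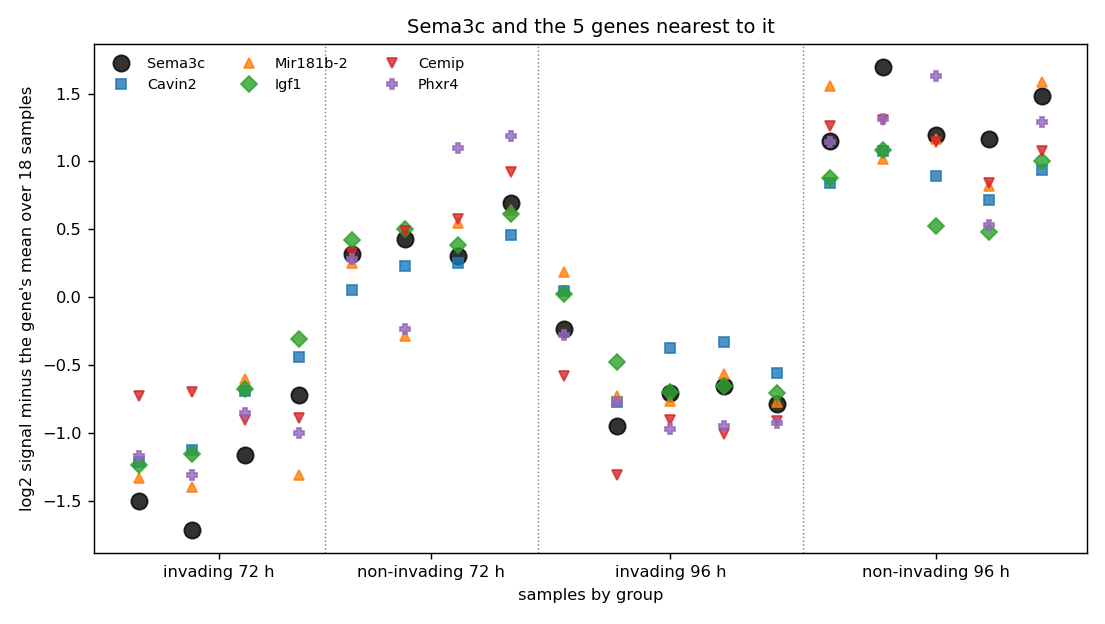
Log2 signal minus the mean of the gene over the 18 samples (vertical axis) for Sema3c (black) and the 5 genes nearest to it, in every sample of the 4 groups (horizontal axis). By group means the genes lie lower in the invading fraction and highest in non-invading samples at 96 h, and Sema3c spans 3.41 log2 units.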

How the data were processed

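RNA of 18 samples was hybridised to whole-transcript mouse gene arrays (Affymetrix Mouse Gene ST). The authors deposited log2 values, background corrected, sketch-quantile normalized and summarized by RMA (Affymetrix Expression Console 1.2, per the submitters' notes), which were used without further change. They cover 35556 probe sets. By the platform annotation 21789 carry 1 symbol and stand for 19938 genes, each given by its brightest such probe set. The fractions were compared per time with limma 3.58.1 (R 4.3.3). The comparisons of times and the change of the fraction ratio came from 1 fit of all samples. P-values were two-sided and Benjamini-Hochberg adjusted over all probe sets. The fits were also run on simulated data with large changes and independent samples, which does not cover small ratios or linked samples. Precision is limited by how many arrays there were. The members and lists were chosen with earlier results of these data known. Named genes are the 10 members, Sema3g, up to 3 called genes per list, comparison and direction with the largest ratios, and the 5 genes nearest to Sema3c. Vegfa was named in addition after its values were seen. Alternatives covered scaling, filters, the fit, the threshold, the replicate block and leaving out each sample. Promoter letters came from RefSeq entries (GRCm38.p6), where 3 members had no match.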

Additional observations from a re-analysis of the deposited data

Results flagged for a closer look

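Of 44 groups of samples (11 genes in 4 groups), 1 held a sample far from the others by Dixon's test, where chance gives about 1 in 20. Sema3d read 4.522 in replicate 3 of the invading fraction at 72 h, while the other 3 samples lay between 4.629 and 4.651. All 4 signals were under the low limit.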

How the results depend on the processing

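The number of genes called stayed within 1.5 times its value under every alternative run. Leaving out 1 sample in turn gave 4 to 6 calls at 72 h, 4 to 7 at 96 h, 5 to 7 between times in the invading and 3 to 4 in the non-invading fraction, and 0 for the change of the fraction ratio. The share of all genes called was not computed for the alternatives. Uncalled values changed sign as follows. Sema3e at 96 h was 0.0879 after quantile normalization and after centring, and -0.058 to 0.0188 without 1 sample. Without 1 sample Plxna1 at 72 h ran from -0.0312 to 0.0532, Sema3g at 96 h from -0.0177 to 0.0388, and between times Sema3a in the invading fraction from -0.0205 to 0.246. In the non-invading fraction Sema3d ran from -0.0766 to 0.00673, Sema3e from -0.0551 to 0.0143 and Sema3g from -0.00625 to 0.0502. The cause was not tested. The call of Sema3f at 72 h was lost in 6 alternatives, that of Plxna1 at 96 h in 9 and that of Sema3d between times in 4. Nrp2 at 96 h was called in 7 alternatives and Sema3b at 96 h in 5. Between times Plxna1 in the non-invading fraction was called in 4 alternatives and Sema3e in the invading fraction in 1. The calls of Sema3a, Nrp1 and Plxnd1 between the fractions, and those of Sema3c, Nrp1 and Plxnd1 between the times, held under all alternatives run. In the wider lists, leaving out 1 sample ended the 72 h call of Plxnc1 in 6 of 8 cases, of Sema6b in 5 and of Unc5b in 3, and the 96 h call of Plxnb1 in 8 of 10, of Nrcam in 7, of Vegfd in 5 and of Robo1 in 4. Between times in the non-invading fraction it ended the call of Sema7a in 5 of 18 cases and those of Plxna3 and Sema6c in 3 each. Same-numbered samples of both fractions correlated, after removal of the group means, at -0.075 to 0.087 at 72 h and 0.049 to 0.17 at 96 h. At 72 h 1 of 4 samples matched best with its own number, which did not show a pairing. At 96 h 4 of 5 did, which goes in the direction of a pairing, at low correlations that do not settle it. With the replicate block the counts were 4 at 72 h, 7 at 96 h, 5 and 3 between times in the invading and non-invading fractions, and 0 for the change of the ratio. The block made the uncalled ratios of Sema3b and Nrp2 at 96 h called by limma (adjusted p = 0.016 and 0.02) and ended the calls of Sema3f and Sema3g at 72 h (adjusted p = 0.11 and 0.16) and of Sema3d between times (adjusted p = 0.21). A figure legend of the study names a paired test for levels of other receptors taken from these arrays, while its methods for the array tests name limma without pairing. One fit of all samples gives no separate value for the change of the ratio, since it already uses all. Signals under 100 limit what can be said of Sema3d, Sema3e and Sema3g. The same holds for Plxnc1, Sema4f, Sema4a and Nrcam of the wider lists, by their mean signals. It also holds for Mir181b-2 and Phxr4 in the invading fraction, by their means at both times.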
